A study of Homo sapiens with 5 samples.

Results

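The 77 potassium channel genes described here are those of 32732 human genes listed in both annotations of the series whose symbol starts with KCN, followed by letters and a closing number, and which held at least 20 UMIs over all 5 libraries. Of 95 genes with such a symbol, 18 fell below this level, 5 of them with no UMI. KCNK13 with 20 UMIs and KCNN4 with 21 lay just inside the limit, and KCNS2 with 19 and KCNH6 with 17 lay just outside. The members comprised 5 KCNQ, 2 Shab, 5 Shaker, 3 Shal, 4 Shaw, 7 ether-a-go-go and 6 silent voltage-gated subunits, 7 calcium- or sodium-activated, 13 inwardly rectifying and 10 two-pore channel genes, and 15 genes of accessory subunits. The rule used the UMI total and no difference between samples, though earlier results of these data were known when it was set. Human cells of D0 held 55892222 UMIs and those of a graft library 11192237 to 21459173, so a gene could pass through D0 alone.

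The study profiled single cells of brain organoids made from H9 AAVS-ChR2-EYFP, a human embryonic stem cell line that carries channelrhodopsin and a yellow fluorescent protein, before and after transplantation into SCID mice, which the paper also calls SCID-Beige and which lack mature lymphocytes. D0 held organoids at day 42 of culture, dissociated with TrypLE. HIP_2MPT, PFC_2MPT, HIP_4MPT and PFC_4MPT held fluorescent tissue dissected from the hippocampus (HIP) or prefrontal cortex (PFC) of mice at 2 or 4 months post transplantation (MPT) and dissociated with Trypsin-EDTA. The hosts received organoids of culture day 42, 5 per site, at 6 to 8 weeks of age. Each condition had 1 library of pooled organoids or animals from 1 cell line, so the HIP and the PFC library served as the 2 replicates of a stage, and p-values measure the spread between these libraries only. D0 differed from grafts in enzyme, Cell Ranger release and annotation too, and its cells were 2 or 4 months younger. These differences cannot be told apart from transplantation.

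Potassium channels set the resting potential of a cell and bring it back after depolarization. Voltage-gated members repolarize the action potential and shape firing, calcium- and sodium-activated members produce afterhyperpolarizations, and two-pore members carry leak current. Inward rectifiers hold the membrane near the potassium equilibrium potential, and in astrocytes they serve the uptake of potassium that active neurons release.

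The libraries held 4885 to 8363 human cells after filtering, with a median of 9847 UMIs per cell in D0 and of 1253 to 2759 in the grafts, and 0.532% to 0.655% of the cell barcodes of a library recurred in another. Marker genes that include no potassium channel put 19135 cells in a neuron-like, 4452 in a progenitor-like and 2099 in an astrocyte-like class, left 8507 without a class and removed 197 as other types. Levels (CPM) are the UMIs of a gene per 1000000 UMIs of a class in a library, over the genes of both annotations. They were not corrected for gene length and are not compared between genes. STMN2, a neuronal microtubule regulator, stood at 2024 CPM in neuron-like cells of D0 and at 2536 to 4516 CPM in those of grafts. It reached 3.78% to 12.7% of the neuron-like level in progenitor-like and 5.94% to 22.5% in astrocyte-like cells of grafts. GFAP (126 to 617 CPM), AQP4 (83.4 to 438 CPM) and SPARCL1 (112 to 848 CPM) in astrocyte-like cells of grafts helped to set that class and are no check of it. A list of 5 astrocyte genes not used for the class summed to 314 to 501 CPM there, to 49.1 to 162 CPM in progenitor-like cells of grafts and to 588 CPM in progenitor-like cells of D0, above each astrocyte-like sum. The astrocyte-like class also held markers of the oligodendrocyte lineage, whose 6 genes summed to 1096 CPM in HIP_4MPT and 622 CPM in PFC_4MPT against 152 and 186 CPM in HIP_2MPT and PFC_2MPT, and 5 progenitor genes not used for the classes that summed to 393 to 3018 CPM. In PFC_2MPT the progenitor markers that set the classes summed to 7174 CPM in astrocyte-like cells, above the 6523 CPM of the astrocyte markers, which goes against the name of that class in this library. In the other grafts the astrocyte markers were above, at 7351 to 14860 CPM against 3343 to 4133 CPM. These markers set the class, so their order is no check of its name. Of the lists not used for the classes, the progenitor genes summed above the astrocyte genes in astrocyte-like cells of every graft. They summed to 393, 2238, 2304 and 3018 CPM against 377, 491, 314 and 501 CPM in HIP_2MPT, PFC_2MPT, HIP_4MPT and PFC_4MPT. This order also goes against the name of the class. In progenitor-like cells 5 genes of inhibitory neurons summed to 567 CPM in HIP_4MPT and 1418 CPM in PFC_4MPT, against 20.1 to 53.1 CPM in the other libraries. In neuron-like cells they summed to 185 CPM in D0, 424 CPM in PFC_4MPT and 2.71 to 89.7 CPM in the other grafts. Choroid plexus markers, 5 genes, summed to 288.5 CPM in neuron-like and 822 CPM in progenitor-like cells of D0 and to 3.45 to 9.44 and 0.603 to 28.6 CPM in those of grafts. The part of these markers in the results was not tested. D0 had 40 astrocyte-like cells, which were rich in choroid plexus transcripts, and gave no sum for that class.

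Members were detected in every library, with a UMI for 71 to 76 of the 77. Together they made up 687 CPM of neuron-like cells in D0 and 2238, 2143, 2863 and 1723 CPM in HIP_2MPT, PFC_2MPT, HIP_4MPT and PFC_4MPT, the order in which graft values are given throughout. In progenitor-like cells the sum was 314 CPM in D0 and 1271, 1110, 1140 and 870 CPM in the grafts. Astrocyte-like cells of grafts reached 1227, 940, 1193 and 1146 CPM. The neuron-like sum was thus above the sums of both other classes in each graft library, and every graft sum lay above D0 in the classes that D0 held. A sum does not describe most members. In neuron-like cells 15 of 62 members tested were higher and 26 lower in grafts than in D0, beside 27.8% and 20.7% of all genes tested. In progenitor-like cells 12 of 37 were higher and 5 lower, beside 24.7% and 20.2%. In neuron-like cells of D0 the 5 leading members held 35.8% of the members' UMIs, with KCNMB4, KCNQ3, KCNH2 and KCNJ6 among them. In grafts the 5 leading members held 62.5% to 71.8%, and KCND2, KCNQ3 and KCNH7 were among them in each library.

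**Figure D1:**
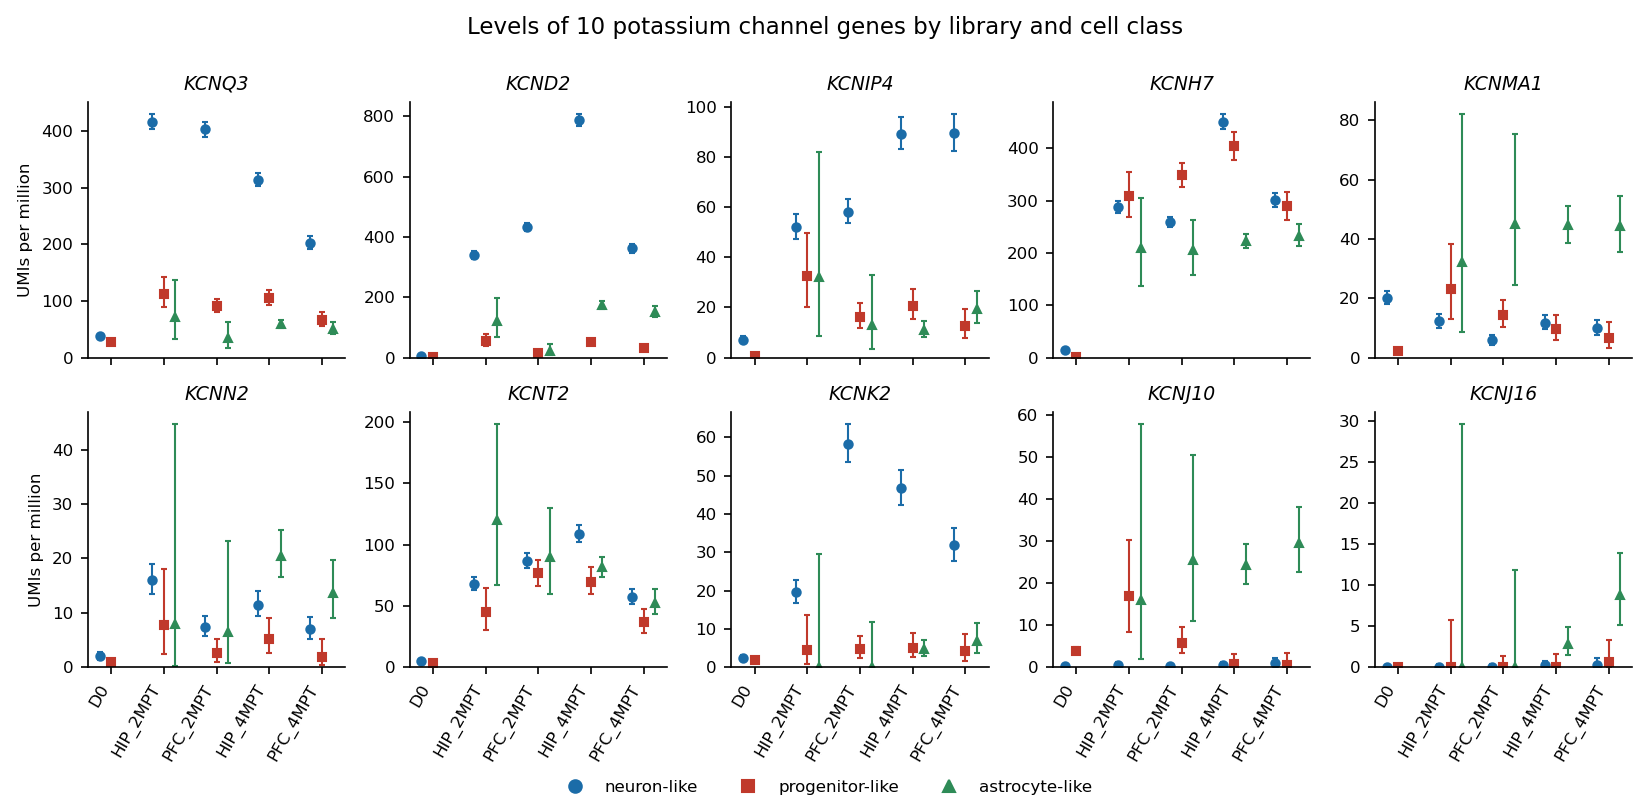
Levels of 10 potassium channel genes in CPM (y axes, each from 0) by library (x axes). Points are the neuron-like (circles), progenitor-like (squares) and astrocyte-like (triangles) sum of a library and bars are exact 95% Poisson intervals, which cover counting error only. KCND2 stands at 3.73 CPM in neuron-like cells of D0 and at 340.4 to 787 CPM in those of grafts, and KCNJ10 reaches 16.0 to 29.7 CPM in astrocyte-like cells.

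Neuron-like cells were compared with progenitor-like cells of the same library to ask which channel genes go with the neuronal state. Of 53 members that passed the filter on low counts, 24 were higher and 7 lower in neuron-like cells (edgeR quasi-likelihood test with the library as a block, adjusted p under 0.05), where 22.1% and 21.5% of the 15536 genes tested, together 43.6%, were called. The median log2 fold change was 0.91 over these members and 0.05 over all genes tested. The members that were higher included the Shal channel KCND2, the Shab channel KCNB2, the G protein-gated inward rectifiers KCNJ3 and KCNJ6 and the leak channels KCNK2, KCNK3 and KCNK12, while KCNJ10 of astrocytes and radial glia was lower. DESeq2 called 27 members.

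Among voltage-gated members, KCND2 encodes the pore of the somatodendritic A-type current. Its level in neuron-like cells was 3.73 CPM in D0 and 340.4, 434, 787 and 362 CPM in grafts, against 0.38 CPM in progenitor-like cells of D0 and 55.6, 15.4, 51.7 and 31.4 CPM in those of grafts. Every neuron-like value of KCND2 exceeded its progenitor-like counterpart, and the difference was 3.69 on the log2 scale (SE 0.31, adjusted p = 4.11e-07). KCNIP4, a calcium-binding accessory subunit of Shal channels, had 6.95 CPM in neuron-like cells of D0 and 52.0, 58.2, 89.3 and 89.5 CPM in grafts. Progenitor-like cells had 0.66 CPM of KCNIP4 in D0 and 32.5, 16.1, 20.7 and 12.7 CPM in grafts, a log2 difference of 2.10 (SE 0.27, adjusted p = 2.20e-05) with no library in the opposite order.

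KCNQ3 encodes a subunit of the neuronal M-current, which opposes repetitive firing. KCNQ3 stood at 37.3 CPM in neuron-like cells of D0 and at 417, 403, 314 and 203 CPM in grafts, and at 27.0 CPM in progenitor-like cells of D0 and 113, 91.3, 106 and 66.9 CPM in grafts. It was higher in neuron-like cells of each of the 5 libraries (1.49 on the log2 scale, SE 0.22, adjusted p = 8.20e-05). KCNH7, an ether-a-go-go-related channel, did not pass the test (0.44, SE 0.42, adjusted p = 0.425), with 288, 259, 451 and 301 CPM in neuron-like and 309, 348, 404 and 289 CPM in progenitor-like cells of grafts. In D0, KCNH7 had 13.7 CPM in neuron-like and 0.59 CPM in progenitor-like cells.

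The Shab channels carry much of the delayed rectifier current of cortical neurons. KCNB2 had 12.2 CPM in D0 and 175, 138, 221 and 80.5 CPM in grafts in neuron-like cells, and 2.02 CPM in D0 and 57.2, 34.5, 69.8 and 41.0 CPM in grafts in progenitor-like cells, higher in neuron-like cells of every library (1.72, SE 0.21, adjusted p = 1.63e-05). Of the Shaker channels, KCNA1, known from axons, was called (2.47, SE 0.80, adjusted p = 0.0284) on 4.57 CPM in neuron-like and 0.73 CPM in progenitor-like cells of D0, with 0 to 0.47 CPM in both classes of grafts. DESeq2 did not call KCNA1 and put its difference at 0.03.

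Leak and inwardly rectifying members went in both directions. KCNK3, an acid-sensitive leak channel, had 21.3 CPM in neuron-like cells of D0 and 1.53, 1.67, 2.503 and 2.98 CPM in grafts, and in progenitor-like cells 1.25 CPM in D0 and no UMI in any graft. Its difference of 4.15 (SE 0.46, adjusted p = 5.45e-06) had the same direction in all 5 libraries. KCNK2, a mechanosensitive leak channel, reached 2.32 CPM in D0 and 19.6, 58.4, 46.8 and 31.9 CPM in grafts in neuron-like cells, against 1.98 CPM in D0 and 4.64, 4.77, 5.17 and 4.22 CPM in grafts in progenitor-like cells (2.28, SE 0.44, adjusted p = 0.000700). For KCNK2 the D0 values nearly coincided, and those of the grafts did not overlap between the classes. KCNJ6, a G protein-gated rectifier, had 36.2 CPM in D0 and 79.8, 32.4, 20.3 and 15.6 CPM in grafts in neuron-like cells. Its progenitor-like levels were 1.81 CPM in D0 and 23.2, 6.96, 2.59 and 1.81 CPM in grafts, lower in each library (2.92, SE 0.30, adjusted p = 2.97e-06).

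KCNJ10 encodes the main inward rectifier of astrocytes. It had 0.39 CPM in neuron-like cells of D0 and 0.59, 0.21, 0.57 and 1.04 CPM in grafts, and 4.00, 17.0, 5.86, 0.86 and 0.60 CPM in progenitor-like cells of D0 and the grafts. In PFC_4MPT the order was opposite to that in the other 4 libraries, and over all of them KCNJ10 was lower in neuron-like cells by a log2 difference of -3.09 (SE 0.61, adjusted p = 0.000930). KCNJ8, the pore of an ATP-sensitive channel known from pericytes and smooth muscle, held 33 UMIs in progenitor-like and 3 in neuron-like cells of D0, and at most 2 UMIs in either class of a graft (-2.88, SE 0.79, adjusted p = 0.0103). KCNK1, a weakly conducting leak channel, had 1.35 CPM in neuron-like and 4.66 CPM in progenitor-like cells of D0, and in grafts 0, 0, 0.23 and 0.30 CPM against 0, 0.37, 0.43 and 1.21 CPM (-1.89, SE 0.55, adjusted p = 0.0141). Without PFC_4MPT the KCNK1 call was lost (adjusted p = 0.0524).

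Of 6 calcium- and sodium-activated members tested, KCNN1, KCNN2, KCNT1 and KCNT2 were higher in neuron-like cells and none was lower. Of all genes tested 22.1% were higher and 21.5% lower. KCNN2, a small-conductance calcium-activated channel, had 2.00 CPM in D0 and 16.1, 7.42, 11.5 and 7.002 CPM in grafts in neuron-like cells, against 0.90 CPM in D0 and 7.73, 2.57, 5.17 and 1.81 CPM in grafts in progenitor-like cells (1.25, SE 0.28, adjusted p = 0.00220). KCNT2, a sodium-activated channel, was at 4.96 CPM in D0 and 68.1, 86.7, 109 and 57.5 CPM in grafts in neuron-like cells and at 3.55 CPM in D0 and 44.8, 76.6, 69.8 and 36.8 CPM in grafts in progenitor-like cells. Both genes were higher in neuron-like cells of every library, and the KCNT2 difference of 0.44 (SE 0.14, adjusted p = 0.0225) lost its call without HIP_4MPT (adjusted p = 0.122) or PFC_4MPT (adjusted p = 0.104). KCNT1, a homologue of KCNT2, was at 0.58, 2.00, 1.25, 0.80 and 3.72 CPM in neuron-like cells of D0 and the grafts and at 0 to 0.60 CPM in progenitor-like cells (2.74, SE 0.67, adjusted p = 0.00396). KCNMA1, the pore of the large-conductance calcium-activated channel, had 20.2, 12.2, 5.75, 11.7 and 9.98 CPM in neuron-like and 2.33, 23.2, 14.3, 9.48 and 6.63 CPM in progenitor-like cells of D0 and the grafts. The classes overlapped for KCNMA1 and the test was not passed (0.43, SE 0.50, adjusted p = 0.522).

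Accessory and silent subunits, which do not conduct alone, made up 4 of the 7 members that were lower in neuron-like cells. Of 11 accessory members tested 4 were higher and 3 lower, and of 3 silent subunits 1 was lower and none higher. Of all genes tested 22.1% were higher and 21.5% lower. The silent subunit KCNG1, which modifies Shab channels, had 34.0, 10.5, 7.003, 8.88 and 3.58 CPM in neuron-like and 20, 86.6, 96.8, 52.2 and 30.8 CPM in progenitor-like cells of D0 and the grafts (-2.33, SE 0.51, adjusted p = 0.00193). It was lower in neuron-like cells of all 4 grafts and higher in those of D0. KCNE5, a single-pass subunit that inhibits several voltage-gated channels, held 13 UMIs in progenitor-like and 3 in neuron-like cells of D0, and in grafts 0, 1, 12 and 9 against 1, 0, 8 and 2 UMIs (-2.76, SE 0.59, adjusted p = 0.00161). KCNAB3 and KCNMB3 were lower by smaller differences of -0.69 (SE 0.26, adjusted p = 0.0398) and -0.59 (SE 0.21, adjusted p = 0.0334), neither of which was called by DESeq2. On the other side, KCNMB2 and KCNMB4, subunits of the KCNMA1 channel, and KCNIP2 and KCNIP4 were higher in neuron-like cells.

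Astrocyte-like cells were set against progenitor-like cells to ask which channel genes mark the glial class. All comparisons between classes came from 1 fit of the 14 class sums. D0, which had no astrocyte-like sum, entered that fit with its neuron-like and progenitor-like sums. Of 53 members tested, 15 were higher and 5 lower, where 10.3% and 11% of all genes tested, together 21.4%, were called. The higher members included the potassium-buffering pair KCNJ10 and KCNJ16, the BK channel pore KCNMA1, and KCNE4, KCNE5 and KCNIP1 among accessory subunits. No member was called without HIP_4MPT and 4 were called without PFC_4MPT, while log2 differences such as those of KCND2 (1.505 without HIP_4MPT, 1.54 with it), KCNMA1 (2.19, 2.22) and KCNJ10 (2.04, 2.51) kept their direction. DESeq2 called 16. Over the members tested the median log2 fold change was 0.72, or 0.43 with members at 0 UMIs in a group set to their bound, against -0.00 over all genes. The astrocyte-like sums of HIP_2MPT and PFC_2MPT held 126292 and 315487 UMIs against 4542389 and 2074569 in HIP_4MPT and PFC_4MPT.

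KCNJ10 in astrocyte-like cells stood at 16.0, 25.7, 24.3 and 29.7 CPM, above the progenitor-like level in 3 of 4 grafts. In HIP_2MPT, where the astrocyte-like sum held 2 UMIs of KCNJ10, it was just below. Its difference from progenitor-like cells was 2.51 (SE 0.61, adjusted p = 0.00926), and the difference of neuron-like from astrocyte-like cells was -5.60 (SE 0.62, adjusted p = 7.61e-06), with no overlap between these classes. KCNJ16, whose protein joins KCNJ10 in a heteromeric channel, had 0, 0, 13 and 18 UMIs in astrocyte-like cells (0, 0, 2.90 and 8.77 CPM), 0, 0, 2 and 2 in neuron-like and 0, 0, 0 and 1 in progenitor-like cells of grafts. Pooled over grafts, KCNJ16 was 32.7 times as high in astrocyte-like as in progenitor-like cells (exact 95% interval of counting error 5.44 to 1331), and the edgeR call (adjusted p = 0.0262) was not made by DESeq2 (adjusted p = 0.5003). The UMIs of KCNJ16 in astrocyte-like cells came from the 4MPT libraries alone, and a count of 0 among 126292 or 315487 UMIs cannot show that it was absent earlier.

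KCNMA1 had 32.1, 44.9, 44.5 and 44.3 CPM in astrocyte-like cells, above every neuron-like and progenitor-like value of that gene. The HIP_2MPT value rested on 4 UMIs (exact 95% Poisson interval 8.74 to 82.1 CPM), too few to order the classes in that library. KCNMA1 was higher than in progenitor-like cells by 2.22 (SE 0.56, adjusted p = 0.0106) and lower in neuron-like than in astrocyte-like cells by -1.79 (SE 0.52, adjusted p = 0.0136). KCNN2 held 1 and 2 UMIs in astrocyte-like cells of HIP_2MPT and PFC_2MPT, too few to order the classes in these libraries. It reached 8.02, 6.41, 20.5 and 13.6 CPM in astrocyte-like cells, above progenitor-like cells in each graft (1.79, SE 0.35, adjusted p = 0.00207). KCND2 was at 120, 22.4, 173 and 152 CPM there (1.54, SE 0.35, adjusted p = 0.00540), which was 35.3%, 5.17%, 22.0% and 42% of the neuron-like level, beside 22.5%, 6.34%, 5.94% and 12.6% for STMN2. In HIP_2MPT, HIP_4MPT and PFC_4MPT the KCND2 share exceeded that of STMN2, and in PFC_2MPT it did not. STMN2 was not among the 5 neuron genes held out of the class naming. Its share is thus no independent yardstick for KCND2, and the comparison of these shares decides nothing. Those genes summed to 136, 41.7, 90.4 and 85.7 CPM in astrocyte-like and 610, 668, 713 and 489 CPM in neuron-like cells of grafts. In HIP_2MPT the KCND2 level rested on 15 UMIs (exact 95% Poisson interval 67.3 to 198 CPM). What these shares reflect was not tested.

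Among accessory subunits KCNE4, an inhibitor of several voltage-gated channels, had 0, 0, 36 and 11 UMIs in astrocyte-like cells and no UMI in the progenitor-like class of any library. Against a floor of 3 UMIs over the progenitor-like cells of the 4 grafts, KCNE4 was at least 16.5-fold higher in astrocyte-like cells, a difference called by edgeR (adjusted p = 0.00983) and not by DESeq2 (adjusted p = 0.455). KCNE5 had 32.1, 0, 46.1 and 19.5 CPM there (2.82, SE 0.54, adjusted p = 0.00188) and KCNIP1, another Shal accessory, 16.0, 3.21, 43.2 and 15.6 CPM (2.86, SE 0.71, adjusted p = 0.0102). Both exceeded the progenitor-like level in each graft except for KCNE5 in PFC_2MPT, where the astrocyte-like sum held no UMI of it. The KCNIP1 values of HIP_2MPT and PFC_2MPT rested on 2 and 1 UMIs, and the KCNE5 value of HIP_2MPT on 4. KCNQ5, a further M-current subunit, was called on 0, 0, 7.13 and 3.41 CPM (2.82, SE 0.95, adjusted p = 0.0472). It was not called by DESeq2 or without PFC_4MPT (adjusted p = 0.170). Its 32 UMIs in HIP_4MPT came from 1.14% of the 1145 astrocyte-like cells of that library. Lower in astrocyte-like cells were KCNH1, an ether-a-go-go channel, with 8.02, 3.21, 2.45 and 1.95 CPM against 24.7, 56.4, 41.8 and 10.3 CPM in progenitor-like cells (-3.72, SE 0.90, adjusted p = 0.00858), KCNB2 with 24.1, 16.0, 16.3 and 20.9 CPM (-1.46, SE 0.31, adjusted p = 0.00354) and KCNQ3 with 72.1, 35.3, 59.2 and 51.2 CPM (-0.998, SE 0.28, adjusted p = 0.0194). These 3 were below the progenitor-like value in every graft, though KCNH1 rested on 1 UMI in HIP_2MPT and 1 in PFC_2MPT. The BK subunit KCNMB3 (16.0, 6.41, 9.58 and 2.92 CPM) and the Shaker subunit KCNAB3 (8.02, 16.0, 7.57 and 8.28 CPM) completed the lower members, with differences of -1.22 (SE 0.30, adjusted p = 0.00982) and -1.17 (SE 0.37, adjusted p = 0.0348), and DESeq2 did not call KCNAB3 (adjusted p = 0.0565).

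**Figure D2:**
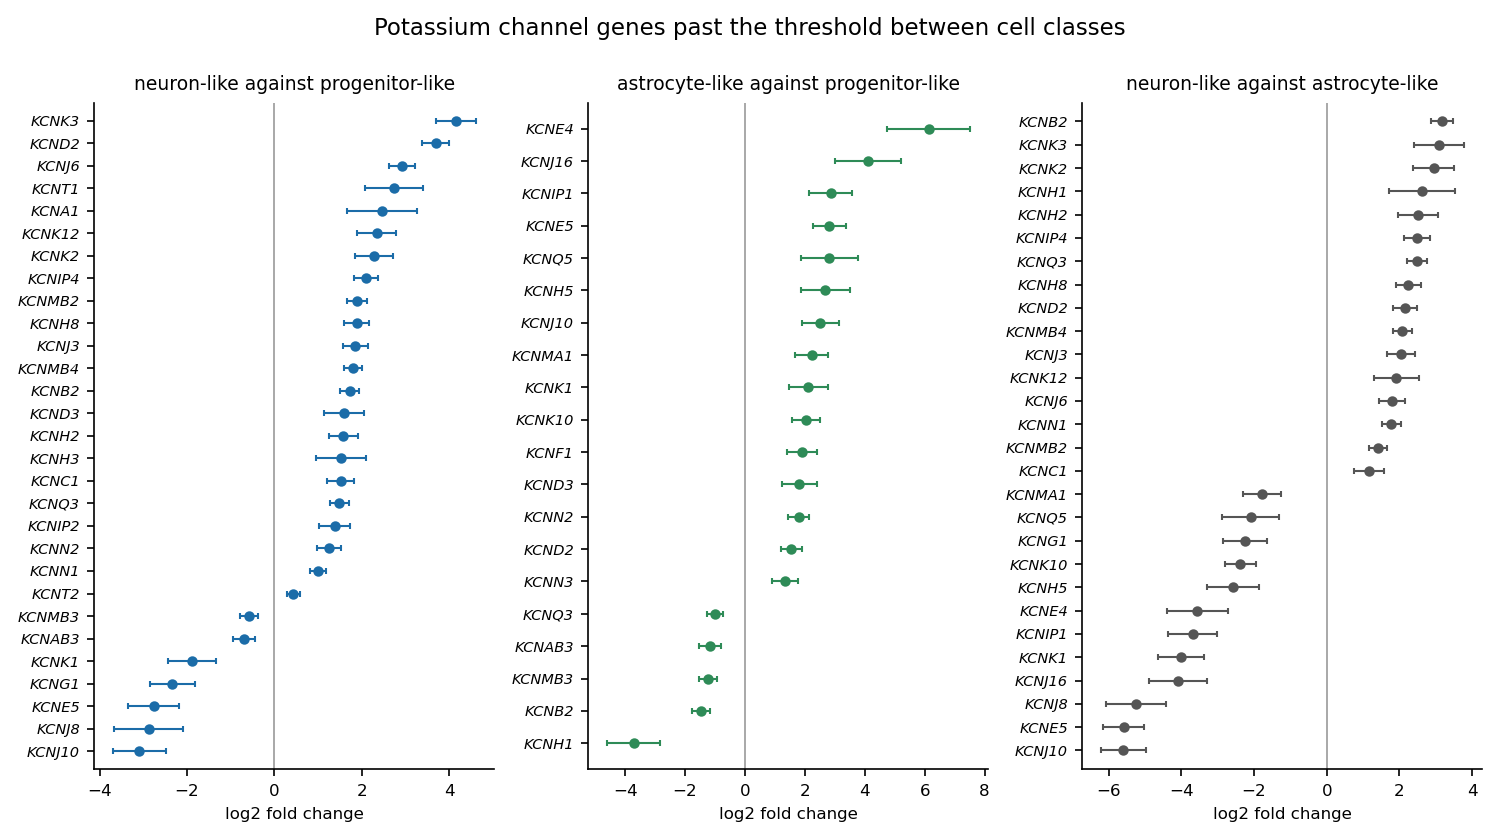
Log2 fold changes (x axes) of the potassium channel genes past the threshold in each comparison of cell classes, with bars of 1 standard error. The 29, 20 and 28 members shown are ordered by fold change, and KCNJ10 lies at -3.09, 2.51 and -5.60 in the left, middle and right panel.

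Between neuron-like and astrocyte-like cells 16 of the 53 members tested were higher in neuron-like cells and 12 lower, where 20.7% and 19.1% of all genes tested, together 39.8%, were called, and DESeq2 called 26. The median over the members was 0.28 and that of all genes 0.09. KCNB2 led the neuron-like side (3.18, SE 0.30, adjusted p = 2.09e-06), its 80.5 to 221 CPM in grafts lying above the 16.0 to 24.1 CPM of astrocyte-like cells. KCNK3 had 0, 0, 0.22 and 0.49 CPM in astrocyte-like cells (3.09, SE 0.68, adjusted p = 0.00236). KCNK2 had 0, 0, 4.68 and 6.82 CPM there (2.94, SE 0.56, adjusted p = 0.000808). Both were below neuron-like cells in HIP_4MPT and PFC_4MPT, though KCNK3 rested on 2 UMIs over the astrocyte-like cells of grafts. In HIP_2MPT a count of 0 in so small a sum cannot order the classes for KCNK3 or KCNK2. In PFC_2MPT the same holds for KCNK3. KCNQ3 (2.48, SE 0.27, adjusted p = 7.27e-06), KCNIP4 (32.1, 12.8, 11.1 and 19.5 CPM in astrocyte-like cells, 2.48, SE 0.35, adjusted p = 6.92e-05) and KCND2 (2.15, SE 0.32, adjusted p = 0.000122) were also higher in neuron-like cells of each graft. KCNH2, a cousin of KCNH7 known from cardiac repolarization, had 5.06, 5.64, 3.98 and 4.32 CPM in neuron-like and 0, 0, 0.67 and 1.46 CPM in astrocyte-like cells (2.52, SE 0.55, adjusted p = 0.00224). KCNH1 was called (2.62, SE 0.90, adjusted p = 0.0320). In HIP_2MPT, however, it had 4.59 CPM in neuron-like and 8.02 CPM, from 1 UMI, in astrocyte-like cells. Its call was lost without HIP_4MPT (adjusted p = 0.324) or PFC_4MPT (adjusted p = 0.0827).

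On the astrocyte-like side KCNE5 (-5.58, SE 0.57, adjusted p = 3.58e-06) followed KCNJ10 closely. KCNJ8 held 0, 0, 22 and 8 UMIs in astrocyte-like and 1, 0, 0 and 1 in neuron-like cells of grafts, a pooled ratio of 72.1 (exact 95% interval of counting error 18.3 to 623). KCNK1 had 0, 3.21, 2.90 and 4.87 CPM in astrocyte-like and at most 0.30 CPM in neuron-like cells of grafts (-4.01, SE 0.63, adjusted p = 0.000317). KCNJ16 was called as well (-4.09, SE 0.80, adjusted p = 0.00298). The order of the classes was the same for KCNK1 in the 3 grafts with a UMI and for KCNJ16 in both 4MPT libraries, while the 1 UMI of KCNJ8 in HIP_2MPT was in neuron-like cells. KCNMA1 lost its call without HIP_4MPT (adjusted p = 0.0786) or PFC_4MPT (adjusted p = 0.0765), and DESeq2 did not call KCNJ16, KCNE4 or KCNQ5. KCNH7 (208, 205, 222 and 233 CPM) and KCNT2 (120, 89.8, 81.5 and 52.6 CPM) did not pass between these classes, at 0.97 (SE 0.48) and 0.14 (SE 0.17). KCNH7 passed, though, when D0 was left out (0.63, adjusted p = 0.00105) and with no filter on low counts (1.01, adjusted p = 0.0124). In astrocyte-like cells it lay below the progenitor-like level in each graft. That difference did not pass (-0.53, SE 0.46, adjusted p = 0.480) except when D0 was left out (-0.77, adjusted p = 0.000493).

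Grafts were compared with D0 within a class to ask how channel expression differed between them, with cell age and transplantation inseparable. In neuron-like cells 41 of 62 members tested were called, 15 higher and 26 lower in grafts, where 27.8% and 20.7% of 17036 genes tested, together 48.5%, were called. The median over the members was -0.40 and that of all genes 0.15. The higher members included KCND2, KCNH7, KCNH8, KCNK2, KCNIP4 and KCNMB2, whose families also held lower members, while the Shaw channels KCNC1, KCNC2 and KCNC4 and all 4 tested Shaker channels were lower. DESeq2 called 34, with 15 higher and 19 lower, and the spread for D0, which had 1 library, was borrowed from the 2 graft stages.

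KCND2 rose by 6.86 on the log2 scale (SE 0.61, adjusted p = 6.43e-06), from 3.73 CPM to at least 340.4 CPM in each graft. KCNQ3 rose by 3.01 (SE 0.38, adjusted p = 7.08e-05) from 37.3 CPM to at least 203 CPM. KCNH7 rose by 4.43 (SE 0.42, adjusted p = 9.23e-06) and its relative KCNH8, at 4.31 CPM in D0 and 179, 114, 281 and 119 CPM in grafts, by 5.19 (SE 0.58, adjusted p = 2.88e-05). No graft value of KCND2, KCNQ3, KCNH7 or KCNH8 overlapped D0. KCNB2 rose (3.54, SE 0.54, adjusted p = 0.000253) from 12.2 CPM to at least 80.5 CPM in each graft.

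KCNMB2, which inactivates BK channels, had 1.29 CPM in D0 and 43.3, 53.9, 91.8 and 47.7 CPM in grafts (5.37, SE 0.52, adjusted p = 1.13e-05). Its pore subunit KCNMA1 was lower in grafts, at 5.75 to 12.2 CPM against 20.2 CPM (-1.15, SE 0.36, adjusted p = 0.0191). KCNIP4 rose by 3.22 (SE 0.35, adjusted p = 2.13e-05), KCNK2 by 3.97 (SE 0.63, adjusted p = 0.000343), KCNT2 by 3.90 (SE 0.46, adjusted p = 3.90e-05) and KCNN2 by 2.26 (SE 0.53, adjusted p = 0.00445), each with all grafts above D0. The silent subunit KCNV2 had no UMI in D0 and 3.41, 5.12, 5.23 and 3.13 CPM in grafts, at least 22.4-fold higher against a floor of 3 UMIs in D0. KCNQ1, known from heart and epithelia, had no UMI in D0 either and 1.65, 1.67, 1.37 and 0.30 CPM in grafts, at least 6.79-fold higher. Both genes reached the 20 UMIs needed for membership through grafts. D0 held 0 of the 236 UMIs of KCNV2 and 16 of the 83 of KCNQ1 over all cells, so their direction was partly set by that limit.

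Among the Shaw channels, which support fast spiking, KCNC1, KCNC2 and KCNC4 were lower in grafts, and the values of KCNC1 and KCNC4 were singled out after they had been seen. KCNC2 had 18.6 CPM in D0 and 0.59, 0.52, 0.23 and 0.30 CPM in grafts (-5.68, SE 0.42, adjusted p = 2.25e-06). KCNC1 was at 36.0 CPM against 14.9, 11.5, 12.1 and 8.34 CPM (-1.74, SE 0.28, adjusted p = 0.000377) and KCNC4 at 5.34 CPM against 0.31 to 1.53 CPM. The 4 graft values of each of these genes thus lay below D0. KCNC2 and the Shaker channels KCNA4 and KCNA1 reached the 20 UMIs needed for membership through D0. That library held 364 of the 380, 169 of the 182 and 122 of the 128 UMIs of these genes over all cells. Their direction was partly set by that limit. Of the Shaker channels, KCNA4, an A-type channel, had 6.50 CPM in D0 and 0.12, 0, 0.11 and 0.30 CPM in grafts (-5.88, SE 0.71, adjusted p = 5.05e-05) and KCNA1 had 4.57 CPM against 0.47, 0, 0.11 and 0 CPM (-5.20, SE 0.88, adjusted p = 0.000504). KCNA2 and KCNA5 were lower as well, and KCNA2 was not called by DESeq2 or without HIP_4MPT (adjusted p = 0.0587).

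Of 10 inward rectifiers tested, 4 were lower in grafts and none higher, beside 20.7% lower and 27.8% higher of all genes tested. KCNJ5, a G protein-gated rectifier, had 25 UMIs in D0 and none in any graft, which with 3 UMIs over the 4 grafts as the floor is at least 18.0-fold lower. KCNJ5, KCND1 and KCNJ12 reached the 20 UMIs needed for membership through D0. It held 37 of the 39, 41 of the 48 and 125 of the 135 UMIs of these genes over all cells. The direction of these genes, and with it the count of lower rectifiers, was partly set by that limit. KCNJ9, also among the lower rectifiers, was not called by DESeq2 (adjusted p = 0.0766). KCNJ4 and KCNJ12, strong rectifiers named after their values were seen, had 11.97 and 4.38 CPM in D0 and 0.23 to 1.29 and 0 to 0.47 CPM in grafts. Among Shal channels KCND1, with 24 UMIs in D0 and none in grafts, was at least 17.3-fold lower, in contrast to KCND2. Of 8 leak channels tested, 5 were lower and 1 higher, beside the same shares of all genes. Of these lower members, DESeq2 did not call KCNK1 (adjusted p = 0.0901) or KCNK10 (adjusted p = 0.0655). KCNK6, a further leak channel, reached the 20 UMIs needed for membership through D0, which held 107 of its 117 UMIs over all cells. Its direction, and any count of leak channels that holds it, was partly set by that limit. KCNK3 fell by 3.45 on the log2 scale (SE 0.34, adjusted p = 1.18e-05) from 21.3 CPM to 1.53 to 2.98 CPM. KCNH2 fell by 3.07 (SE 0.28, adjusted p = 8.44e-06) from 36.7 CPM to 3.98 to 5.64 CPM.

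**Figure D3:**
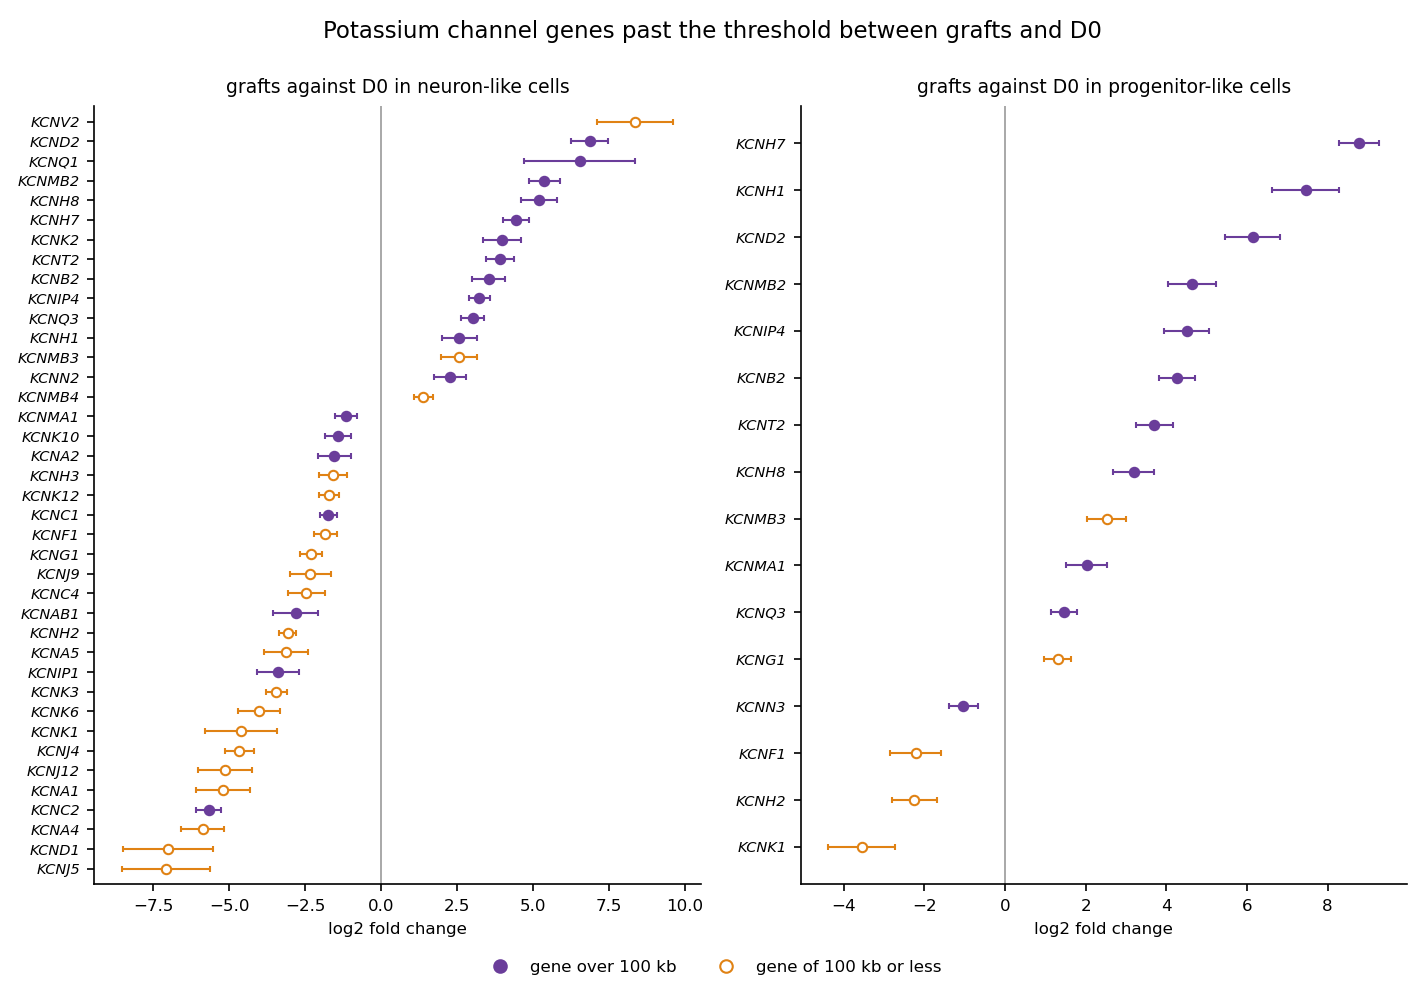
Log2 fold changes (x axes) of potassium channel genes past the threshold between grafts and D0 in neuron-like (left, 39 members) and progenitor-like cells (right, 16 members), with bars of 1 standard error. Filled points are genes that span over 100 kb and open points shorter genes. Fitted values of KCNV2, KCNQ1, KCND1 and KCNJ5, each at 0 UMIs in a group, depend on the prior count and are not bounds.

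In progenitor-like cells 12 of 37 members tested were higher and 5 lower in grafts, where 24.7% and 20.2% of 13600 genes tested, together 44.9%, were called. DESeq2 called the higher direction in 12 members and the lower in none. KCNH7 led with 0.59 CPM in D0 against 309, 348, 404 and 289 CPM (8.79, SE 0.50, adjusted p = 5.75e-09), and KCNH1 had 0.14 CPM in D0 against 24.7, 56.4, 41.8 and 10.3 CPM (7.45, SE 0.84, adjusted p = 2.73e-06). KCND2 rose by 6.14 (SE 0.68, adjusted p = 2.44e-06), KCNIP4 by 4.502 (SE 0.56, adjusted p = 7.72e-06), and KCNMB2, at 0.45 CPM in D0 and 18.5, 10.3, 14.2 and 18.7 CPM in grafts, by 4.64 (SE 0.60, adjusted p = 1.14e-05). All graft values of these 5 genes lay above D0. The median over the members was 0.57 and that of all genes 0.02.

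Members lower in progenitor-like cells of grafts included KCNK1 (-3.56, SE 0.82, adjusted p = 0.00213), KCNH2 (-2.25, SE 0.56, adjusted p = 0.00371), the silent subunit KCNF1 (-2.22, SE 0.63, adjusted p = 0.00898) and the small-conductance channel KCNN3 (-1.04, SE 0.35, adjusted p = 0.0243). KCNH2 had 7.76 CPM in D0 and 3.09, 1.47, 3.02 and 1.21 CPM in grafts, and KCNF1 had 9.67 CPM against 4.64, 1.83, 0.43 and 5.43 CPM. KCNK1 moved along with the choroid plexus markers of this class, at 822 CPM in D0 and at most 28.6 CPM in grafts, and cells of D0 with such markers held 38.8 CPM of KCNK1. The part of these cells in the KCNK1 difference was not tested. For KCNN3, at 20.9 CPM in D0 and 30.9, 15.8, 7.76 and 7.84 CPM in grafts, HIP_2MPT lay above D0, and the call was lost without PFC_2MPT (adjusted p = 0.103). KCNMA1 was higher in progenitor-like cells of grafts (2.02, SE 0.50, adjusted p = 0.00342), where it was lower in neuron-like cells.

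Gene span differed along with these changes. In neuron-like cells, 12 of the 29 members that span over 100 kb were higher and 8 lower in grafts, against 3 higher and 18 lower of the 33 shorter members. Of all genes in the 3 shorter span classes, under 10, 10 to 30 and 30 to 100 kb, 17.6% to 25.2% were called higher and 21.8% to 25.4% lower. Over all 3707 genes above 100 kb the median log2 fold change was 1.09, with 49.5% called higher and 11.1% lower. In progenitor-like cells 10 of 22 members above 100 kb were higher and 2 lower, and all 3067 such genes had a median of 0.92, with 48.3% called higher and 10.7% lower. KCNIP4 spans 1220 kb of chromosome 4, KCNMB2 571.5 kb, KCND2 477 kb and KCNH7 467 kb, whereas KCNA1 spans 8.35 kb and KCNA4 7.30 kb. KCNV2 at 12.5 kb was higher and KCNC2 at 169.8 kb lower, against that order. Whether intronic reads were counted was not given in the sources used here, and the part of span in the result was not tested.

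**Figure D4:**
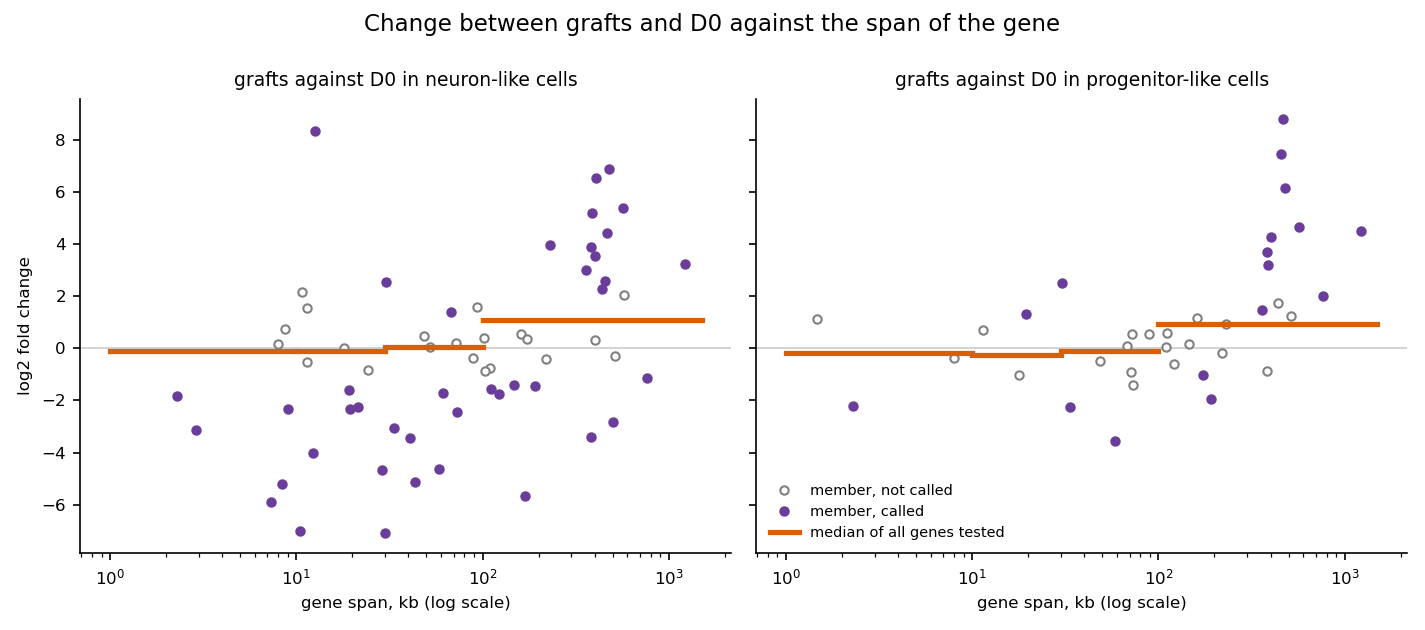
Log2 fold change between grafts and D0 (y axes) against gene span in kb (x axes, log scale) for the tested potassium channel genes in neuron-like (left) and progenitor-like cells (right). Filled points passed the threshold, open points did not, and bars mark the median of all genes tested in 4 span classes; above 100 kb these medians are 1.09 and 0.92.

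Promoters are shown for KCNJ10, the glial rectifier, and for KCND2, KCNN2 and KCNT2, which were higher in neuron-like than in progenitor-like cells. Against astrocyte-like cells KCND2 alone of the latter was called higher in neuron-like cells (2.15), while KCNN2 (-0.53) and KCNT2 (0.14) were not called. They are those of the genes listed by name in the methods that have exactly 1 entry among RefSeq promoters of GRCh38.p14, and each is given as the 250 bases before that RefSeq start, in the direction of the gene. For KCNN2 and KCNT2 this start lies inside the gene as the annotation of the counts has it (chr5:114055926-114496500 and chr1:196225779-196609225), so it is another start than the outermost one. Capitals mark GGGCGG, the GC box, or TTGGCA, a site of nuclear factor I proteins, on either strand. KCNJ10 is on chr1:160070161-160070410 (minus strand), KCND2 on chr7:120272925-120273174 (plus), KCNN2 on chr5:114361820-114362069 (plus) and KCNT2 on chr1:196608441-196608690 (minus).
KCNJ10: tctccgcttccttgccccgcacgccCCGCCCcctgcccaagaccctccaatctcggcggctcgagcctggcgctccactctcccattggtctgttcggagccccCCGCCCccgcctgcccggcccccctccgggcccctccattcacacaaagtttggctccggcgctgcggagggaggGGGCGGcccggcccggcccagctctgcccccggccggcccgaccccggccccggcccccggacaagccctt
KCND2: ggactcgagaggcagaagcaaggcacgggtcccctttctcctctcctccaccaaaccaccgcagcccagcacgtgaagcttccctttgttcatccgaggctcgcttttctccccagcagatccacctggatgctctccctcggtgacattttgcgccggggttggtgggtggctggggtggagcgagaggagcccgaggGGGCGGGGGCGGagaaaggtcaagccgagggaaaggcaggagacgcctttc
KCNN2: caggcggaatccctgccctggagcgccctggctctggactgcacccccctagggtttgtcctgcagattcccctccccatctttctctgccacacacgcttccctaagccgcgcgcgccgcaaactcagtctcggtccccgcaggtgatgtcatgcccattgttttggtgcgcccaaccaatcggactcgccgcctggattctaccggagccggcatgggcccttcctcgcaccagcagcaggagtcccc
KCNT2: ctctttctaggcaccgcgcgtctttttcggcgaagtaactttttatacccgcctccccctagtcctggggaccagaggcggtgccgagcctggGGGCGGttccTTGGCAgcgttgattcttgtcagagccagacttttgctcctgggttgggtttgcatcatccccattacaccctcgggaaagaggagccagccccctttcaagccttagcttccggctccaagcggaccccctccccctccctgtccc
The windows hold 3, 2, 0 and 1 GC boxes, and that of KCNT2 alone holds TTGGCA. Their GC content is 76.8%, 63.6%, 64.8% and 60.4%. Of 94 promoters of 58 members, 50% hold GGGCGG and 11.7% TTGGCA, against 42.6% and 10.8% of all 35116 promoters, whose median GC content is 58.0% against 64.6% for the members. A match describes these letters in this window only.

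Between 4MPT and 2MPT no member passed edgeR's threshold in any class, and DESeq2 called 1 in neuron-like cells. Of 62, 37 and 21 members tested in neuron-like, progenitor-like and astrocyte-like cells, 10, 8 and 2 had an unadjusted p under 0.05, and 0.834%, 1.15% and 0.11% of all genes tested were called. KCNJ6 in neuron-like cells, the member DESeq2 called (adjusted p = 0.0160), had 79.8 and 32.4 CPM at 2MPT and 20.3 and 15.6 CPM at 4MPT (-1.58, SE 0.36, edgeR adjusted p = 0.0714, or 0.00214 with the graft site as a block). Its stages did not overlap in neuron-like or in progenitor-like cells (-2.35, SE 0.75, adjusted p = 0.218). Libraries of a site came from different animals, so the site as a block, here and below, is an alternative fit and no pairing. With 2 libraries per stage, stages that do not overlap are no test. KCNIP4 in neuron-like cells went from 52.0 and 58.2 CPM to 89.3 and 89.5 CPM (0.75, SE 0.24, adjusted p = 0.217), and KCNQ3 from 417 and 403 CPM to 314 and 203 CPM (-0.62, SE 0.28, adjusted p = 0.421). KCND2, KCNH7, KCNMA1, KCNN2, KCNK2 and KCNT2 lay between -0.28 and 0.61 in neuron-like cells, with standard errors of 0.27 to 0.41.

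KCNJ10 in progenitor-like cells had 17.0 and 5.86 CPM at 2MPT and 0.86 and 0.60 CPM at 4MPT (-3.49, SE 0.89, adjusted p = 0.0733, or 0.0165 with the site as a block), and the stages did not overlap. In astrocyte-like cells the KCNJ10 stages overlapped, with 16.0 and 25.7 CPM and then 24.3 and 29.7 CPM (0.32, SE 0.50, adjusted p = 0.972). KCND2 in astrocyte-like cells went from 120 and 22.4 CPM to 173 and 152 CPM (1.64, SE 0.48, adjusted p = 0.337, or 0.0151 with the site as a block). Without HIP_2MPT, which leaves the 7 UMIs of KCND2 in PFC_2MPT as the only 2MPT count, the difference was 2.95. With no filter on low counts it was 1.74 (adjusted p = 0.00230). KCND2 was not called by DESeq2 or under the remaining alternatives. Where the change between stages was itself compared between astrocyte-like and neuron-like cells, none of 52 members passed edgeR's threshold, 7 had an unadjusted p under 0.05, DESeq2 called 0, and 0.536% of all genes tested were called.

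Between PFC and HIP grafts of the same stage no member passed the threshold of edgeR or DESeq2 in neuron-like (46 tested, 6 with an unadjusted p under 0.05), progenitor-like (25 tested, 3) or astrocyte-like cells (21 tested, 3). Of all genes tested 0.158%, 0.0338% and 0.157% were called, of which 0.0328%, none and 0.046% lower in PFC. In neuron-like cells KCNN2 had 16.1 and 11.5 CPM in HIP and 7.42 and 7.002 CPM in PFC (-0.87, SE 0.41, adjusted p = 1.00). KCNJ6 was lower in PFC at both stages (-0.81, SE 0.34, adjusted p = 1.00), and KCND2 was higher in PFC at 2MPT and lower at 4MPT (-0.33, SE 0.42, adjusted p = 1.00). These fits leave 1 residual degree of freedom before the spread is shared between genes.

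Other genes that shape excitability were counted by family. In neuron-like against progenitor-like cells 4 of 4 tested HCN pacemaker channel genes, 12 of 14 tested voltage-gated calcium channel genes and 4 of 7 tested sodium channel genes were higher and none lower, where 22.1% of all genes tested were higher and 21.5% lower. Of 11 tested genes of the sodium-potassium pump, which builds the gradient potassium channels use, 5 were higher and 2 lower. In astrocyte-like against progenitor-like cells 6 of the 11 pump genes were higher and 1 lower, beside 10.3% and 11% of all genes tested. Of 15 tested partners of potassium channels, such as DPP6 and DPP10 of Shal channels and the anchoring proteins ANK2 and ANK3, 8 were higher and none lower in neuron-like than in progenitor-like cells.

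In neuron-like cells of grafts against D0, where 27.8% of all genes tested were higher and 20.7% lower, 1 of 4 tested HCN genes was higher and 3 lower, 4 of 15 calcium channel genes were higher and 7 lower, 3 of 11 sodium channel genes higher and 2 lower, and 7 of 10 tested pump genes lower with none higher. Of 15 tested partners 5 were higher and 4 lower. Between 4MPT and 2MPT in neuron-like cells, 0.564% of all genes tested were higher and 0.27% lower. There 1 of 10 tested pump genes and 1 of 11 sodium channel genes were higher, and none of the calcium channel, HCN or partner genes was called.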

How the data were processed

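The deposited values are counts of UMIs per gene and barcode, which the authors made from droplet-based 3′ libraries with Cell Ranger, per the file headers in release 3.1.0 for D0 and 5.0.0 for grafts, without normalization. The processing notes name Cell Ranger 3.1 and R 4.1.1. Grafts were also counted on a human-mouse reference, from which the human share of a barcode was read. Human cells had over 500 UMIs, over 500 genes, log10 genes over 0.80 of log10 UMIs, a mitochondrial share under 0.15 and, in grafts, a human share over 0.8. No doublet caller was run.

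Cells were scored by the mean log value over 10 neuron, 12 progenitor or 11 astrocyte markers, divided by its 95th percentile, and took the class with the highest score where it led by over 0.2. Astrocyte-like cells also needed a UMI of GFAP, AQP4, AGT, SPARCL1 or S100B, and cells with 3 or more markers of another type were removed. The scoring was chosen after the data were seen, and 1334 neuron-like, 295 progenitor-like and 102 astrocyte-like cells lay within 0.05 of the limit. Counts were summed per library and class with 50 or more cells, which gave 654121 to 28763635 UMIs for neuron-like and progenitor-like sums, and tested over all genes with edgeR 4.0.16 in R 4.3.3 (filterByExpr, TMM, quasi-likelihood test, p-values adjusted by Benjamini-Hochberg and called under 0.05). Classes were compared in 1 fit of 14 class sums with the library as a block, stages and D0 in 1 fit of 3 groups, and sites with the stage as a covariate. DESeq2 1.42.0, other filters, classes and left-out libraries were alternatives. Standard errors are the log2 fold change divided by the root of F. Promoter matches, levels and figures were computed in Python 3.11.15. The procedure was tested on simulated data.

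The members and gene lists were chosen with earlier results of these data known. Values in every library are given for the 5 called members per direction with the largest log2 fold change in a comparison and for KCNJ10, KCNJ16, KCNQ3, KCND2, KCNIP4, KCNMA1, KCNH7, KCNN2, KCNK2 and KCNT2. Other members named singly, such as KCNB2, KCNC1, KCNJ13 and KCNMB4, were chosen after their values were seen. A few genes counted in the totals are not reported here by name or drawn in the plots that label genes. RefSeq promoters were found for 58 of the 77 members.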

Additional observations from a re-analysis of the deposited data

How the results depend on the processing

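No direction of a called member was reversed under any alternative. Leaving out 1 library gave 26 to 28 called members for neuron-like against progenitor-like, 0 to 18 for astrocyte-like against progenitor-like (0 without HIP_4MPT, 4 without PFC_4MPT), 19 to 28 for neuron-like against astrocyte-like, 40 to 42 and 15 to 18 for grafts against D0 in neuron-like and progenitor-like cells, and 0 to 5, 0 to 2 and 0 to 1 for 4MPT against 2MPT in neuron-like, progenitor-like and astrocyte-like cells. For neuron-like cells the 5 came without PFC_2MPT. A stage left with 1 library took its spread from the other groups, which assumes that they vary alike. The share of all genes called is not given here for any alternative, DESeq2 included. Counts of members called under alternatives therefore cannot separate a change in channel genes from a change in calls over all genes. Between the stages, DESeq2 called 1 member in neuron-like cells, no filter on low counts gave 4, 2 and 1 in the 3 classes, and the graft site as a replicate block gave 1, 1 and 1. Libraries of a site came from different animals, and their deviations from the stage means correlated at -0.23, -0.13 and -0.03, so the site is no pairing. Crossing the sites between stages, an alternative chosen after seeing the data, gave 4 and 4 calls in neuron-like and progenitor-like cells. No filter gave 24 members for grafts against D0 in progenitor-like cells, 13 higher and 11 lower. The number of members whose share of cells with a UMI was above D0 in every graft went from 10 to 22 in neuron-like and from 10 to 17 in progenitor-like cells when each cell was thinned to 1000 UMIs. The cause of these differences was not tested. Grafts against D0 without D0, and PFC against HIP with a library left out, could not be fitted with residual degrees of freedom. Low depth limits the 2MPT astrocyte-like sums, where 1 UMI or none is the value of many members.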

Other observations

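A group of 63 cells of D0 carried choroid plexus markers and stood outside the 3 classes. It was set beside the neuron-like and progenitor-like class of D0 for 4 potassium channel genes. KCNJ13, an inward rectifier known from choroid plexus and other transporting epithelia, held 56 UMIs there, or 28.6 CPM (exact 95% Poisson interval of counting error 21.6 to 37.1), against 0.19 CPM in neuron-like and 0.52 CPM in progenitor-like cells of D0. KCNK1 had 76 UMIs (38.8 CPM) in this group against 1.35 and 4.66 CPM in the neuron-like and progenitor-like class, KCNMB4 had 122 UMIs (62.3 CPM) against 42.3 and 20.4 CPM, and KCNIP1 had 59 UMIs (30.1 CPM) against 9.01 and 5.08 CPM. The group came from 1 library, so these values have no replicate and were not tested, and these 4 genes were picked once their values had been seen. KCNMB4 and KCNIP1 were not particular to this group. KCNMB4 stood at 94.9 to 154 CPM in neuron-like cells of grafts and KCNIP1 at 43.2 CPM in astrocyte-like cells of HIP_4MPT.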
